A study of Homo sapiens with 6 samples.

Results

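The regions described here are stretches of open chromatin far from any promoter that carry the AP-1 core heptamer, TGACTCA or TGAGTCA. They were taken from ATAC-seq peak lists of 3 human oesophageal cell lines. In ATAC-seq the Tn5 transposase inserts adapters into accessible DNA, and open sites collect more short fragments than their surroundings. A peak was a member when it lay over 3 kb from every transcription start site of GENCODE 44 on hg19 and its hg19 sequence held the heptamer. The 2 spellings are each other's reverse complement, so a search of 1 strand finds every site. Of 29879 peaks in 6 lists, 5317 were members, and they merged into 4423 regions.

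AP-1 is a dimer of basic leucine zipper proteins of the FOS, JUN, ATF and MAF families, and FOS-JUN dimers bind this heptamer, also known as the TPA response element. AP-1 acts largely at distal enhancers, where it binds beside lineage factors, and it is an end point of growth factor signalling through the MAP kinases. EGFR, the epidermal growth factor receptor, is one start of that pathway and is often overexpressed in oesophageal squamous cell carcinoma. A heptamer in an open region is a stretch of letters and does not show that the protein was bound there.

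The lines were HET-1A (libraries 1 and 2), a non-cancerous oesophageal epithelial line, and 2 oesophageal squamous cell carcinoma lines, KYSE-30 (libraries 4 and 6) and KYSE-150 (libraries 7 and 8). The labels name no treatment. HET-1A grew in BEBM with its additives and both carcinoma lines in RPMI/F12 with serum, so that line and medium cannot be told apart. The labels do not say whether the 2 libraries of a line came from separate cultures, so p-values over libraries measure the spread between these libraries only, which may be technical.

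The libraries stood far apart in the number of peaks. Library 2 (HET-1A) held 15979 peaks and library 6 (KYSE-30) held 11671, against 1255 in library 4 (KYSE-30) and 168, 547 and 259 in library 1 (HET-1A) and KYSE-150 libraries 7 and 8. Members numbered 2699 in library 2, 2481 in library 6 and 107 in library 4. Library 1 held 7 members, library 7 (KYSE-150) held 16 and library 8 (KYSE-150) held 7. The genome-wide background that the peak caller used lay between 1.49 and 3.34 tags per 200 bp and did not follow these numbers, since library 1 had 1.88 and library 6 the lowest value. Of 9 epithelial marker genes, library 2 had a peak within 3 kb of a start site at EPCAM, KRT8 and KRT18, and library 6 at EPCAM, KRT8, GRHL2 and ESRP1. The other libraries had a peak at none of the 9, and CDH1, KRT5, KRT14 and TP63 had none in any library. Of 5 mesenchymal markers 1 had such a peak, VIM in library 6, and the 4 blood and 2 liver markers had none.

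The sequences below show the heptamer of members that the later results return to, with 20 bases to each side, from the plus strand of hg19 and with the heptamer in capitals. The first 4 lie in and around EGFR and were members in 2 or 3 libraries. The next 4 were among the 3 members of highest fold enrichment of a library or were members in 3 libraries. The last was the member of highest fold enrichment in library 1 and in both KYSE-150 libraries.
EGFR intron, chr7:55200747-55200793: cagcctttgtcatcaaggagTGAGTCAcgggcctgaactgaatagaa
EGFR intron, chr7:55141881-55141927: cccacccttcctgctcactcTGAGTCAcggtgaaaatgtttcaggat
EGFR upstream, chr7:55053189-55053235: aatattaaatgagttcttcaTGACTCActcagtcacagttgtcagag
EGFR upstream, chr7:55035139-55035185: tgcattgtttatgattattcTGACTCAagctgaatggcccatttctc
SCN9A intron, chr2:167096196-167096242: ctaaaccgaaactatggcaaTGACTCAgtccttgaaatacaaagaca
CDH18 nearest, chr5:21152816-21152862: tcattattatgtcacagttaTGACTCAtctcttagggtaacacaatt
MBOAT2 nearest, chr2:9211353-9211399: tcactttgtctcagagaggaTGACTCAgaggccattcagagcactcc
ITGB6 nearest, chr2:161062145-161062191: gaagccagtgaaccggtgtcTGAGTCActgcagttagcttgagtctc
ANKRD30BL nearest, chr2:133025931-133025977: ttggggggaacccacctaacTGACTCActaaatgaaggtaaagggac

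The heptamer was common in the distal peaks of the 2 libraries with many peaks and rarer in peaks near start sites. In library 6 (KYSE-30), 47.3% of 5243 distal peaks held it (Wilson 95% interval 46.0 to 48.7%), against 15.4% of 6428 peaks within 3 kb of a start site (14.6 to 16.3%). In library 2 (HET-1A) it was in 36.0% of 7492 distal peaks (34.9 to 37.1%) and in 14.8% of 8487 peaks near start sites (14.0 to 15.6%). Library 4 (KYSE-30) lay below both, with 23.5% of 456 distal peaks (19.8 to 27.6%) and 6.88% of 799 peaks near start sites. Windows of the same length 10 kb downstream of the distal peaks, which give the frequency of the letters in the surrounding genome, held the heptamer in 4.16%, 4.10% and 3.12% of cases in these 3 libraries. Intervals here and below cover counting error only.

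The 3 small libraries differed from these. In library 1 (HET-1A), 5.69% of distal peaks held the heptamer (2.78 to 11.3%), in library 7 (KYSE-150) 8.25% (5.14 to 12.98%) and in library 8 (KYSE-150) 5.15% (2.52 to 10.2%). Their downstream windows held it in 3.39%, 3.19% and 3.82%, and the intervals of peaks and windows overlapped in each of these libraries. The difference between peaks and windows was not tested in single libraries.

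Over the 6 libraries the share in distal peaks exceeded that in peaks near start sites by 12.4 ± 13.01 percentage points (SD, n = 6), with a higher share in 5 of 6 libraries. Library 8 (KYSE-150) went the other way, with 5.15% in distal peaks and 6.50% near start sites (3.33 to 12.3%) and overlapping intervals. An exact sign-flip permutation test over the libraries, two-sided, gave p = 0.09375, and the same value after Benjamini-Hochberg adjustment over the 3 tests made. The smallest p that 6 libraries allow is 0.03125. With a promoter distance of 1 kb the difference was 14.6 points, 6 of 6 libraries went the same way and the adjusted p from the exact permutation test was 0.046875.

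**Figure D1:**
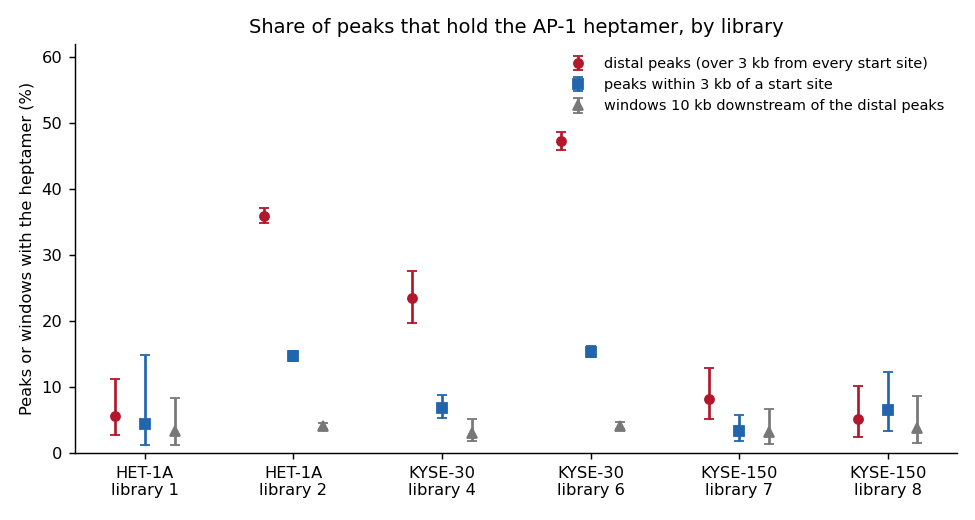
Share of peaks or windows with the heptamer in percent (vertical axis) for each library, with Wilson 95% intervals as bars. The 3 series are distal peaks, peaks within 3 kb of a start site and windows 10 kb downstream. Distal peaks of library 6 (KYSE-30) (47.3%) and library 2 (HET-1A) (36.0%) stand far above their downstream windows (4.16% and 4.10%), while the intervals overlap in the 3 libraries with under 20 members.

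The change with distance from a start site was abrupt. In library 2 (HET-1A) the heptamer was in 10.7% of peaks within 1 kb of a start site (10.02 to 11.5%), in 32.8% of peaks at 1 to 3 kb (30.5 to 35.2%), and in 34.0%, 37.1% and 38.7% of peaks at 3 to 10, 10 to 50 and over 50 kb. The same classes of library 6 (KYSE-30) held it in 11.1%, 43.9%, 45.6%, 48.3% and 48.0%. Most of the difference lay between the first class and the second, on the near side of the limit of 3 kb. In library 4 the classes held it in 5.26%, 16.5%, 22.0%, 25.7% and 16.3%, the last from 43 peaks. Just inside the limit were heptamer peaks at 3005 bp from TTC19 with a fold enrichment of 5.60, at 3005 bp from FNDC3B with 5.70 and at 3009 bp from UQCRHP2 with 4.58. Just outside it were peaks at 2997 bp from C10orf90 with 7.82, at 2996 bp from VOPP1 with 3.50 and at 2995 bp from RNF11P1 with 3.67.

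Longer distal peaks held the heptamer more often, and at every length the share was above that of peaks near start sites. Among peaks of at most 200 bp, 29.9% of distal peaks and 13.9% of peaks near start sites held it in library 6 (KYSE-30). Among peaks over 400 bp the shares were 59.3% and 13.7%, so the share rose with length in distal peaks and stayed within 13.7 to 17.8% near start sites. For library 2 (HET-1A) they were 27.7% and 14.2% at up to 200 bp and 42.2% and 15.2% over 400 bp. Downstream windows of these lengths held it in 2.99 to 7.59% of cases in library 6.

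Within distal peaks the heptamer sat near the summit, the base where the tags pile up highest. In library 6 (KYSE-30) there were 3.597 heptamers per kb within 50 bp of the summit and 1.37 per kb in the rest of the same peaks. Library 2 (HET-1A) had 2.65 and 0.970 per kb, and library 4 (KYSE-30) had 1.51 and 0.859 per kb. Library 1 (HET-1A) and KYSE-150 libraries 7 and 8 had 0.253, 0.371 and 0.226 per kb near the summit and 0.187, 0.3002 and 0.148 per kb in the rest, from 7, 17 and 7 heptamers in all. Downstream windows held 0.121 to 0.150 per kb.

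The density was higher near the summit in 6 of 6 libraries, by 0.797 ± 0.942 per kb on average (SD, n = 6, range 0.0658 to 2.23). The exact sign-flip permutation test over libraries, two-sided, gave p = 0.03125, the smallest value it can give, and 0.046875 after adjustment over the 3 tests. The direction held in 5 of 6 libraries, with exact p-values of 0.125 and 0.0625, when near meant within 25 bp and when peaks had a q-value under 0.01. With start sites of protein-coding genes only and with A or G before and C or T after the heptamer, 6 of 6 libraries and the exact p of 0.03125 stayed, and the adjusted p was 0.09375 through the other tests of the family. The call also rests on counting the 2 libraries of a line as separate, since 3 lines alone allow no exact p under 0.25.

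Of the members of library 2 (HET-1A), 66.0% had a heptamer within 50 bp of the summit, and the nearest heptamer was a median of 34 bp away (quartiles 17 and 65 bp). Library 6 (KYSE-30) gave 66.3% and a median of 33 bp (quartiles 15 and 64 bp). In library 4 (KYSE-30) the figures were 55.1% and 45 bp. Heptamers lay farther out in library 1 (HET-1A), with 42.9% and 57 bp, and in KYSE-150 library 7, with 43.75% and 57 bp. KYSE-150 library 8 had 42.9% and 104 bp. These 3 libraries held 7, 16 and 7 members. In 5.67% and 5.97% of the members of the 2 large libraries the heptamer covered the summit itself. Heptamers lay on the lower and on the higher side of the summit in near equal numbers, 1593 and 1691 in library 2 and 1521 and 1686 in library 6.

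**Figure D2:**
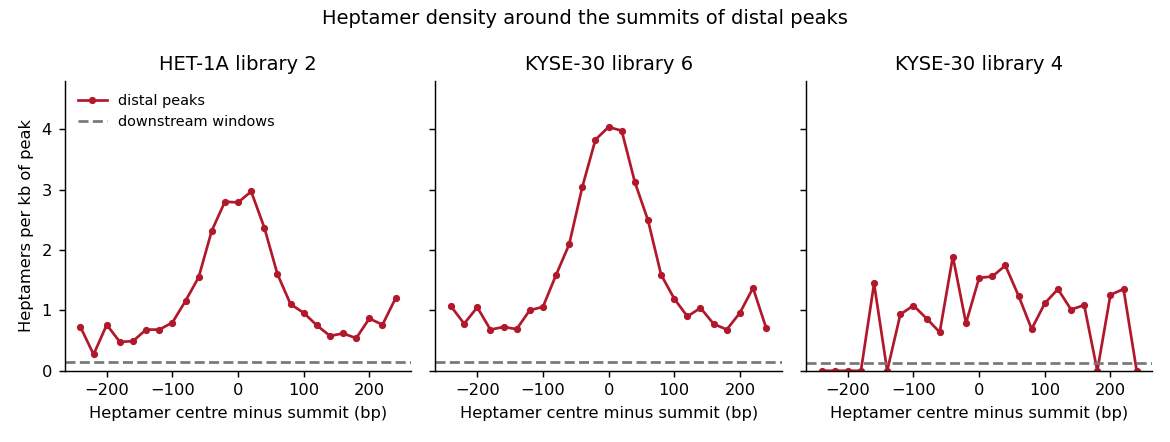
Heptamers per kb of distal peak (vertical axis) in 20-bp steps of distance from the summit in bp (horizontal axis) for the 3 libraries with over 100 members. The broken line is the density in the downstream windows. The density in library 6 (KYSE-30) was 4.04 per kb at the summit and 1.06 and 1.19 per kb at 100 bp to either side, and in library 2 (HET-1A) it was 2.79, 0.799 and 0.960 per kb.

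Most members held a single heptamer. In library 2 (HET-1A), 2157 members held 1, 483 held 2 and 59 held 3 or more, with a maximum of 7. The numbers in library 6 (KYSE-30) were 1863, 522 and 96, with a maximum of 12. In the 844 regions with exactly 2 heptamers the centres were a median of 72.5 bp apart (quartiles 31 and 135.5 bp). Members with more heptamers had higher median fold enrichment. In library 6 the median was 5.64 with 1 heptamer, 6.03 with 2 and 6.47 with 3 or more, and in library 2 it was 4.37, 4.62 and 5.06. The same members were also longer, with median lengths of 275, 304 and 354 bp in library 6 and 264, 285 and 340 bp in library 2, and the part of length in this was not tested.

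In both large libraries the bases beside the heptamer differed from those beside heptamers of the surrounding genome. A heptamer with A or G before it and C or T after it, the extended site, made up 40.1% of 3310 heptamers in members of library 2 (HET-1A) (38.4 to 41.8%) and 40.0% of 3229 in library 6 (KYSE-30) (38.4 to 41.7%). In the downstream windows it made up 22.5% of 311 (18.2 to 27.5%) and 24.0% of 221 (18.8 to 30.0%). Read in the direction that puts C in the centre, aTGACTCAt was the commonest 9-base form among the 5548 distinct heptamers of all members, at 10.8%, and tTGACTCAa the rarest, at 0.757%. In the downstream windows each of the 2 forms made up 5.62% of 516 heptamers. Library 4 (KYSE-30) had the extended site in 27.7% of 130 heptamers (20.7 to 35.9%), and in 42.9% of the 14 heptamers in its windows (21.4 to 67.4%), with overlapping intervals and the order turned round. Heptamers preceded by TGC or followed by GCA, which extend to the half-site of the small MAF proteins, made up 5.65% in library 2 and 4.71% in library 6, against 2.89% (1.53 to 5.41%) and 4.52% (2.48 to 8.13%) in the windows, with overlapping intervals.

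Other factors' core letters were counted within 100 bp of the summit, on both strands, in members, in other distal peaks, in peaks near start sites and in the downstream windows. GGAATG, the core of the TEAD factors that carry YAP to DNA, was in 21.7% of members and 22.6% of other distal peaks of library 6 (KYSE-30), against 10.9% of peaks near start sites and 10.2% of downstream windows. The same 4 shares in library 2 (HET-1A) were 16.5%, 15.98%, 10.003% and 10.9%. The TEAD core was thus frequent in distal peaks whether or not they held the heptamer. TGTTTAC, the forkhead core, was in 5.89% of members of library 2 and 2.68% of its downstream windows, and in 4.19% and 3.05% in library 6. Other distal peaks held it in 5.05% in library 2 and 5.25% in library 6. TGTGGT, the RUNX core, was in 17.9% of members of library 6 and 14.0% of windows, and in 14.8% and 13.9% in library 2. Other distal peaks held it in 18.3% in library 6 and 15.3% in library 2, with intervals that overlapped those of members. Counted over the whole peak, members held it more often than other distal peaks. The shares were then 25.2% and 21.8% in library 6 and 20.5% and 19.5% in library 2.

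Some letters were less frequent in distal peaks, with or without the heptamer, than in peaks near start sites. GGGCGG, bound by SP and KLF factors, was in 6.15% of members of library 2 (HET-1A) and 48.3% of its peaks near start sites, and in 4.96% and 45.8% in library 6 (KYSE-30). CCAAT, the NFY core, was in 23.2% and 32.9% in library 2 and in 21.8% and 35.2% in library 6. Other distal peaks of libraries 2 and 6 held GGGCGG in 8.60% and 8.73% and CCAAT in 22.0% and 22.1%. ACCGGAAG (ETS) was in 0.482% of members and 2.56% of peaks near start sites in library 2. TGACGTCA, the cyclic AMP response element, which holds no heptamer but starts with the same 4 letters as TGACTCA, was in 0.259% and 2.42%, and CCAGGGGGC (CTCF) in 0.222% and 1.73%. Other distal peaks of library 2 held the ETS, cyclic AMP and CTCF letters in 0.396%, 0.417% and 0.897%. AGATAA, the core of GATA factors, was more frequent in members than near start sites. It was in 7.85% of members and 3.53% of peaks near start sites in library 2, and in 10.2% and 3.44% in library 6. Windows held it in 11.9% and 14.6%, and other distal peaks in 7.22% and 11.1%. ACAAAG, the core of SOX factors, was likewise in 16.3% of members and 8.86% of peaks near start sites in library 2. In library 6 the shares were 17.5% and 9.46%. Windows held it in 14.9% and 15.7%, and other distal peaks in 14.0% and 16.8%. TTGCGCAA (CEBP) and the spaced p53-family and NFI motifs were in 0.564% of members or fewer in either library.

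Members stood slightly higher over their local background than other distal peaks. The fold enrichment, tags at the summit plus 1 over the local background plus 1, had a median of 5.78 in the members of library 6 (KYSE-30) (quartiles 5.00 and 6.83, range 2.80 to 13.9) and of 5.04 in its other distal peaks. In library 2 (HET-1A) the medians were 4.42 (quartiles 3.83 and 5.08, range 1.63 to 9.48) and 3.70. In library 4 (KYSE-30) they were 4.30 and 4.17, in library 1 (HET-1A) 4.72 and 4.61, in library 7 (KYSE-150) 4.09 and 4.04 and in library 8 (KYSE-150) 5.50 and 4.22. The distributions overlapped widely in every library, and the highest values belonged to other distal peaks in all 6. Members were also longer than other distal peaks in every library but library 1 (HET-1A). Median lengths were 284 and 248 bp in library 6 (KYSE-30) and 268 and 256 bp in library 2 (HET-1A). In library 1 they were 213 and 234 bp. The part of length in the difference of fold enrichment was not tested.

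The log2 difference of medians was 0.15 ± 0.15 (SD, n = 6, range 0.02 to 0.38) and was above 0 in 6 of 6 libraries. The exact sign-flip permutation test, two-sided, gave p = 0.03125 and an adjusted p of 0.046875. The largest difference came from library 8 (KYSE-150), which held 7 members. The call was lost with a promoter distance of 1 kb, with start sites of protein-coding genes only, with a q-value under 0.01, with the heptamer required within 100 bp of the summit, with the longer site of 9 bases and with means in place of medians, at adjusted p-values of 0.09375 to 0.28125 from the same exact test. The number of tags at the summit differed little, with medians of 24 and 23 in library 2 (HET-1A) and 17 and 15 in library 6 (KYSE-30).

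**Figure D3:**
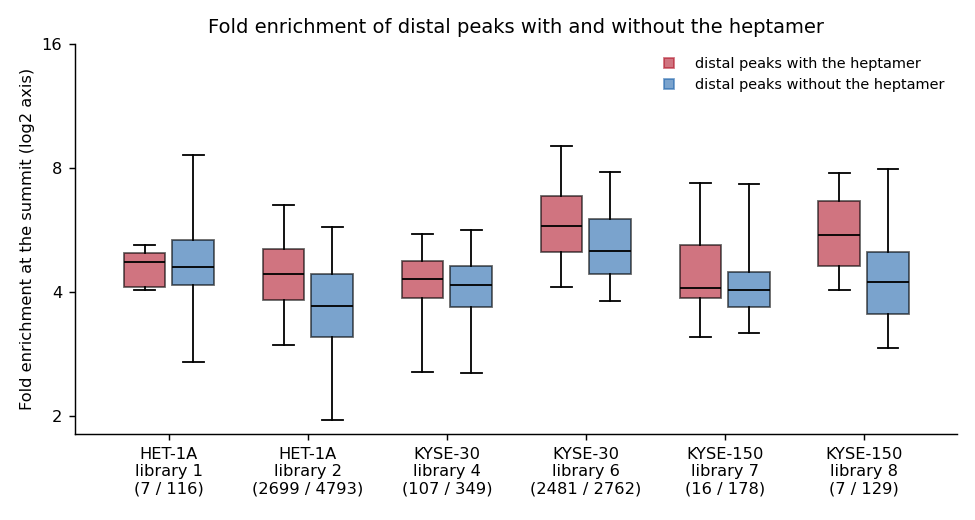
Fold enrichment at the summit (vertical axis, log2 scale) of distal peaks with and without the heptamer by library, with the numbers of peaks under each name. Boxes span the quartiles with the median as a line, and whiskers end at the outermost peaks between the 5th and 95th percentiles. Medians are 5.78 and 5.04 in library 6 (KYSE-30) and 4.42 and 3.70 in library 2 (HET-1A), and the boxes overlap in each library.

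By place, 54.3% of the members of library 2 (HET-1A) lay in introns, 41.2% between genes and 4.48% overlapped an exon. Library 6 (KYSE-30) gave 56.2%, 39.7% and 4.07%. Other distal peaks of the 2 libraries were in introns in 51.6% and 52.6% of cases. The median distance from the nearest start site was 14.1 kb in library 2 and 15.7 kb in library 6, and 10.7% and 13.8% of members lay over 50 kb away. Members held 47.7% and 46.8% G and C on average, against 50.3% and 48.0% in the other distal peaks.

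The share of members found again in another large list was above that of other distal peaks. Of the members of library 2 (HET-1A), 31.1% (29.4 to 32.9%) shared at least 1 bp with a peak of library 6 (KYSE-30), against 11.4% (10.5 to 12.3%) of its other distal peaks. Of the members of library 6, 33.3% (31.5 to 35.2%) shared bases with a peak of library 2, against 19.9% (18.5 to 21.5%). Peaks of library 4 (KYSE-30) were found in library 6 of the same line for 71.0% of its 107 members (61.8 to 78.8%) and 26.9% of its other distal peaks (22.5 to 31.8%). They were found in library 2 for 57.0% (47.5 to 66.0%) and 20.1% (16.2 to 24.6%). In all 4 comparisons the intervals of members and of other distal peaks were apart.

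Shared peaks had higher fold enrichment, so the shares were also read within 4 bins of fold enrichment of near equal size. In the lowest bin of library 2 (HET-1A), 10.2% of members (7.18 to 14.2%) and 2.02% of other distal peaks (1.43 to 2.83%) were found in library 6 (KYSE-30). In the highest bin the shares were 42.8% (39.8 to 45.8%) and 28.7% (25.7 to 31.8%). In library 6 they ran from 27.2% and 12.8% in the lowest bin to 38.8% (35.5 to 42.1%) and 32.8% (28.7 to 37.1%) in the highest. The share was higher in members in each of the 8 bins, and the intervals met in the highest bin of library 6. Sharing also went with the number of heptamers, at 27.6%, 42.9% and 64.4% of members with 1, 2 and 3 or more in library 2 and 31.5%, 38.5% and 41.7% in library 6. The 64.4% came from 59 members (51.7 to 75.4%). In library 6 the intervals for 2 and for 3 or more overlapped (34.4 to 42.7% and 32.3 to 51.7%). Members with more heptamers were also longer and higher in fold enrichment, and the part of either in this was not tested.

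**Figure D4:**
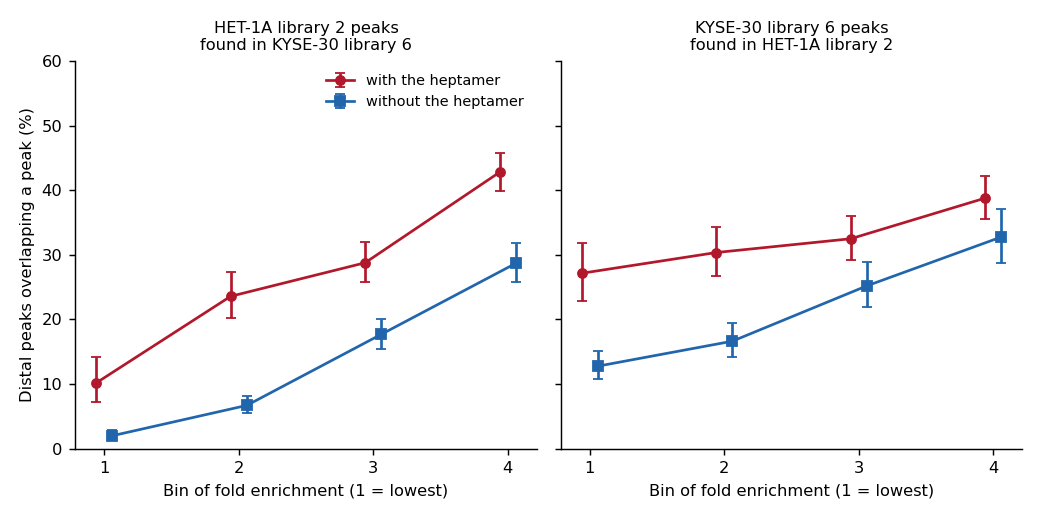
Share of distal peaks that overlap a peak of the other line's large library in percent (vertical axis), by bin of fold enrichment within the library (horizontal axis, 1 lowest), with Wilson 95% intervals. Points with the heptamer lie above points without it in all 8 bins, and the gap is widest in bin 2 of library 2 of HET-1A (23.6% and 6.71%) and narrowest in the highest bin of library 6 of KYSE-30 (38.8% and 32.8%).

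Read by region, the heptamer was most frequent where both large libraries had a peak. Of 1380 distal regions with a peak in library 2 (HET-1A) and in library 6 (KYSE-30), 63.2% held a member (60.6 to 65.7%). The share was 42.8% (41.3 to 44.4%) of the 3866 regions with a peak in library 6 and not in library 2, and 30.5% (29.3 to 31.6%) of the 6105 with the reverse. Shared regions are longer, with a median of 369 bp against 257 bp in either other class. Counting only regions whose strongest peak had a heptamer within 100 bp of its summit, the shares were 53.6%, 38.8% and 26.7%, in the same order. Of 215 distal regions with a peak only in KYSE-150, 5.58% held a member (3.22 to 9.50%). Of 33 with a peak in all 3 lines, 18.2% did (8.61 to 34.4%).

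Of the 4423 member regions, 3589 were members in 1 library, 781 in 2, 52 in 3 and 1 in 5. The commonest pairing was of library 2 (HET-1A) with library 6 (KYSE-30), in 738 regions. Among 790 regions where both had member peaks, 786 held the same heptamer in both peaks, and the 2 summits lay a median of 35 bp apart (quartiles 11 and 67.75 bp). Peaks of a region overlap on the same genome sequence and most members hold a single heptamer. The count of 786 is therefore largely set by the merging. Members shared by the 2 libraries reached a median of 4.83 (fold enrichment) in library 2 and 5.97 in library 6, against 4.28 and 5.66 for the members not shared.

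In 53 regions at least 3 libraries had a member peak, and 49 of them had peaks in library 2 (HET-1A) and both KYSE-30 libraries. By place, 30 lay in introns, 22 between genes and 1 on an exon. In library 2 their fold enrichment ran from 2.86 to 7.62 with a median of 4.82, in library 4 (KYSE-30) from 2.54 to 6.50 with a median of 4.43, and in library 6 (KYSE-30) from 3.50 to 12.3 with a median of 6.95. In 38 of the 53 a heptamer lay within 50 bp of the summit of the strongest peak, and 26 held at least 2 heptamers.

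Of these regions 6 are given singly, picked after the values of the 53 were seen. At 5246 bp from the nearest start site of ITGB6, the beta subunit of an epithelial integrin that activates TGF-beta, chr2:161062024-161062357 had a fold enrichment of 3.95 in library 2 (HET-1A), 4.77 in library 4 (KYSE-30) and 6.89 in library 6 (KYSE-30). Its 2 heptamers include the ITGB6 sequence above. At CLDN4, a tight junction claudin, chr7:73236816-73237246 had 5.33, 4.26 and 6.98 in the same 3 libraries and lay 4828 bp from a start site. In an intron of LAMC1, a laminin chain of basement membranes, chr1:183029594-183029852 had 5.30, 4.71 and 8.07.

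The region chr2:9211143-9211574, between genes and 67305 bp from MBOAT2, had 5.74 in library 2 (HET-1A), 5.49 in library 4 (KYSE-30) and 12.2 in library 6 (KYSE-30), with the heptamer 5 bp from the summit of the last. In an intron of OSMR, the oncostatin M receptor, chr5:38872210-38872661 had 6.03, 4.12 and 8.82. At 20126 bp from DLK1, an imprinted gene, chr14:101213371-101213746 had 4.40, 4.42 and 5.23. Fold enrichment was highest in library 6 in each of these, but it is relative to each library's own background, and levels were not tested between lines.

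The strongest members of each large library were partly shared. In library 6 (KYSE-30) the highest fold enrichments were 13.9 at chr12:127610212-127610938, 13.4 at chr2:20111576-20112048 on an exon of WDR35 and 12.8 in an intron of SCN9A at chr2:167096060-167096382. The first 2 were also called in library 2 (HET-1A), each with 5.06, and the SCN9A region was called in no other library. In library 2 the highest were 9.48 at chr11:34706827-34707235, between genes and 42653 bp from EHF, an epithelial ETS factor, and 9.36 at chr5:21152701-21153268, 576754 bp from CDH18. In library 6 these had 5.63 and 8.84. The third, at chr8:53737919-53738200 and 79516 bp from RB1CC1, had 8.97 and was called in library 2 only.

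Members were assigned to the protein-coding gene with the nearest start site. Of 20149 such genes, 1950 (9.68%) were nearest to a member of library 2 (HET-1A), 1824 (9.05%) to a member of library 6 (KYSE-30) and 100 (0.496%) to a member of library 4 (KYSE-30). Both large libraries named 856 of these genes, which is 43.9% of the genes of library 2 and 46.9% of those of library 6. Most genes had 1 member, 1523 in library 2 and 1404 in library 6, and 157 and 146 had 3 or more. Genes with long intergenic surroundings are nearest to more peaks of any kind, and the lists were not tested. Apart from EGFR, the number of distal peaks of any kind at the genes of the lists is not given here. Their counts therefore do not show whether the share with the heptamer was raised. The median number of members per gene was 0 over all genes and in each of the lists below, with the exception of the YAP and TEAD targets in library 6, where it was 0.5.

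Among 17 genes of the EGFR pathway, 7 were nearest to a member in library 2 (HET-1A) and 7 in library 6 (KYSE-30). EGFR had 8 member regions. DUSP6, a phosphatase that switches off ERK, had 4 regions, of which 2 were members in library 2 and 4 in library 6. DUSP4, a related phosphatase, had 3, all in library 6. The ligands TGFA and EREG had 2 regions each, those of EREG in library 6 and those of TGFA with 1 member in each of library 2, library 4 (KYSE-30) and library 6. DUSP5, another phosphatase of ERK, and SPRED2, an inhibitor of the pathway, also had 2 regions each, with 1 member of DUSP5 and 2 of SPRED2 in library 2 and 2 and 1 in library 6.

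Of 15 genes of AP-1 subunits and relatives, 3 were nearest to a member in library 2 (HET-1A) and 4 in library 6 (KYSE-30). FOS, FOSB, FOSL1, JUNB, JUND, BATF, BATF2, ATF5, MAFF and MAFG had none. FOSL2, a FOS family member, had 3 regions and JUN had 2, and both were named by both libraries. ATF3 and BATF3 had 1 region each in library 6, and MAFK 1 in library 2. Of 20 genes often reported as AP-1 targets, 9 were nearest to a member in library 2 and 5 in library 6. PLAU, the urokinase protease, and CD44, a hyaluronan receptor, had 2 regions each, and no other gene of the list had more than 1.

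The list of YAP and TEAD targets had 5 of 12 genes nearest to a member in library 2 (HET-1A) and 6 of 12 in library 6 (KYSE-30). NT5E, an ectonucleotidase, had 4 regions, with 2 members in each library. CRIM1 had 3, all in library 6. PTPN14, a phosphatase that restrains YAP, had 3, with 3 members in library 2 and 1 in library 6. Of 14 genes of hemidesmosomes and matrix adhesion, 6 were nearest to a member in library 2 and 4 in library 6. ITGA3, an integrin subunit that binds laminin, had 4 regions, all in library 2, and LAMA3, ITGA6 and ITGB6 had 2 each.

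Of 15 genes of the squamous lineage, 7 were nearest to a member in library 2 (HET-1A) and 4 in library 6 (KYSE-30). KLF4, a factor of epithelial differentiation, had 7 regions, 5 in library 2 and 3 in library 6. KLF5, its relative in basal cells, had 5, with 2 and 3. Another 6 genes had 1 region each. Those of GRHL2, KRT17, DSC3 and PERP were in library 2 only, that of TP63 in library 6 only and that of SOX2 in both. TP63 and SOX2 specify squamous cells. GRHL3, KRT5, KRT14, KRT6A, S100A2, DSG3 and SFN had none.

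Counts per gene were led by loci outside these lists in library 2 (HET-1A) and by EGFR in library 6 (KYSE-30). In library 2 (HET-1A), MYC, the growth-promoting transcription factor, was nearest to 22 members, DLGAP1, a synaptic scaffold gene, and TRIB1, a pseudokinase gene, to 14 each, CDH18 and TRPS1 to 9 each, GSDMC to 8, PTGER4, a prostaglandin E2 receptor, and SDK1 to 7 each, and ABTB2 and AGAP1 to 6 each. These came from 96, 62, 20, 21, 35, 28, 11, 10, 9 and 8 distal peaks, in that order. At MYC, DLGAP1, TRPS1 and GSDMC members were a smaller share than the 36.0% over all distal peaks of library 2. At the other genes they were a larger share, and no share was tested. For MYC, DLGAP1 and GSDMC, 22, 13 and 8 of these members had a local background at least 4 times the genome background, and of those at TRPS1 2 had, while TRIB1 had none such. In library 6 (KYSE-30) the order was EGFR with 8, SOX9, a progenitor cell transcription factor, with 7, CDH18, CDH9, DUSP10, a phosphatase of stress kinases, MACROD2 and OXR1 with 6 each, and AGAP1, ASAP1 and ASAP2 with 5 each. They came from 14, 13, 9, 8, 8, 8, 7, 6, 8 and 8 distal peaks, in that order. Over all distal peaks of library 6 the share with the heptamer was 47.3%. All 8 members at EGFR had a raised local background and none of those at the other 9 genes did. SOX9 had no member in library 2, where DUSP10 had 2.

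Raised local background was uneven over the genome. Of the members of library 2 (HET-1A), 136 (5.04%) lay where the local background was at least 4 times the genome background, in blocks on chromosomes 8, 18, 11 and 19. The 1-Mb window with most of them, 25, began at base 129000001 of chromosome 8 and had a median background of 12.5 times, and the highest median was 19.1 times, in the window from base 70000001 of chromosome 11. Raised background held 29 members (1.17%) of library 6 (KYSE-30), of which 12 lay in the window from base 55000001 of chromosome 7 and 3 in the one before it. In library 4 (KYSE-30) there were 13 (12.1%), with 6 and 3 in the same windows. Fold enrichment divides by the local background, and the median over distal peaks in raised background was 2.12 in library 2 against 4.14 elsewhere. The heptamer was in 19.2% of raised distal peaks of library 2 (16.4 to 22.2%) and in 37.8% of the others (36.6 to 39.0%). In library 6 the shares were 39.2% (28.9 to 50.6%) and 47.4% (46.1 to 48.8%), with overlapping intervals. Library 4 had 23.6% and 23.4%. Library 1 (HET-1A) and KYSE-150 libraries 7 and 8 went the other way, with 13.3% and 4.63%, 18.2% and 7.65%, and 8.33% and 4.84%. These came from 15, 11 and 12 raised peaks, and the intervals overlapped. What causes the raised background was not tested.

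EGFR lies in the block on chromosome 7. Within 500 kb of the EGFR start there were 13 member regions, of which 12 were members in library 6 (KYSE-30), 8 in library 4 (KYSE-30) and 4 in library 2 (HET-1A). Distal peaks of any kind in this window numbered 24, 18 and 6 in these libraries. Over all distal peaks the shares with the heptamer were 47.3%, 23.5% and 36.0%, and the difference at the locus was not tested. Library 1 (HET-1A) and both KYSE-150 libraries had no distal peak there. The median local background of these members was 11.6 times the genome background in library 6, 9.23 times in library 4 and 1 in library 2. The number of members per library at this locus cannot be told apart from the background of that library.

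The intronic region chr7:55200292-55201809, whose heptamer lies 114060 bp downstream of the EGFR start, was a member in 3 libraries. It had 27 tags and a fold enrichment of 6.45 in library 2 (HET-1A), 133 tags and 4.04 in library 4 (KYSE-30), and 227 tags and 7.43 in library 6 (KYSE-30). The heptamer lay 39, 223 and 89 bp from the summit in the 3 libraries. A second intronic region, chr7:55141604-55142236 at 55194 bp downstream, was a member in both KYSE-30 libraries and was not called in HET-1A. It had 92 tags and 3.78 in library 4 and 181 tags and 8.28 in library 6, the highest fold enrichment of the locus.

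Upstream of EGFR, chr7:55053075-55053670 at 33498 bp had 4.14, 2.94 and 6.51 in library 2 (HET-1A), library 4 (KYSE-30) and library 6 (KYSE-30). At 51548 bp upstream, chr7:55035004-55035616 had 6.91, 3.13 and 5.72, so that the highest fold enrichment was in library 2. Its tags were 29, 64 and 98 in the same order. At 313405 bp upstream, chr7:54773198-54773434 had 5.76 in library 2 and 2.80 in library 6. Of the 4 regions that library 2 and library 6 shared as members, fold enrichment was higher in library 6 in 2 and lower in 2. Tags were higher in library 6 in all 4, and fold enrichment is relative to the local background of each library. The other member regions had a called peak in KYSE-30 only, apart from chr7:54898825-54899839, where library 2 had a peak without the heptamer. A region without a called peak was below the caller's threshold and need not be closed.

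**Figure D5:**
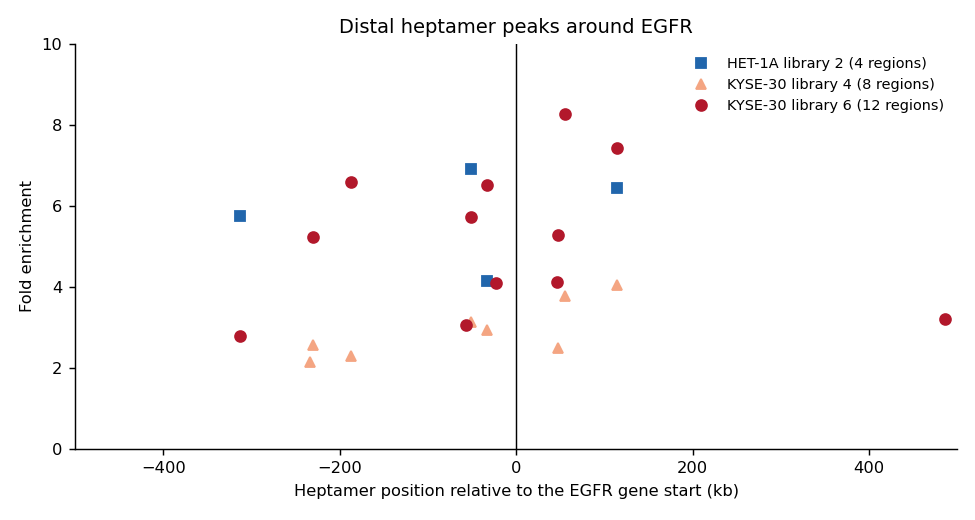
Fold enrichment (vertical axis) of the distal heptamer regions within 500 kb of the EGFR gene start against the position of the heptamer relative to that start in kb (horizontal axis). Each point is a member peak of 1 library. Library 6 (KYSE-30) has 12 regions up to a fold enrichment of 8.28, library 4 (KYSE-30) has 8 and library 2 (HET-1A) has 4, of which the highest is 6.91. Distal peaks of any kind in the window number 24, 18 and 6 in these libraries.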

How the data were processed

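The data were 6 ATAC-seq peak lists, 1 per library, from 2 libraries each of HET-1A, KYSE-30 and KYSE-150. Per the study's methods and the submitters' processing notes, the authors aligned paired reads to hg19 with Bowtie2 2.3.3.1, marked duplicates with Picard 2.2.1, dropped blacklisted regions, and called peaks in each library by MACS2 2.1.0.20160309 on fragments under 100 bp with extension to 200 bp and a q-value limit of 0.05, with no pooling of libraries and no control library named. The deposited score column is a display value, 10 times −log10 q as a whole number, and was not used in any result. As deposited by the authors, the fold enrichment column is a ratio of summit tags plus 1 to local background plus 1, and the p and q columns are −log10 values. Tags and background were recovered from fold and −log10 p at a tolerance of 0.001, which gave whole tags for 99.6 to 100% of peaks per library. Total read depth is not given in the files, so the recovered background stands in for it.

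Start sites came from GENCODE 44 lifted to hg19; the version used by the study is not given in the sources used here. Sequences were read from hg19. Overlap meant at least 1 shared bp. The 3 tests were exact sign-flip permutation tests over 6 within-library differences, adjusted by Benjamini-Hochberg. With 2 libraries a line, an exact test between lines cannot give p under 0.333, so none was run. The heptamer search was tested on 500 simulated peaks, part of them with a planted heptamer and an extra match allowed, and 100% came out as planted. Tag recovery returned the planted tags in 100% of 500 simulated cases. Those cases were made with the formula that the recovery inverts, so they check the code and not the deposited columns. Scripts ran in Python 3.11.15 with scipy 1.17.1 for the tests, pysam 0.24.0 for sequence, pandas 2.3.3 and numpy 2.4.6 for tables and matplotlib 3.10.9 for plots.

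The members and gene lists were chosen with earlier results of these data known. Named regions were those with members in at least 3 libraries, the 3 members of highest fold enrichment per library and all members within 500 kb of the EGFR start. Named genes were the 10 nearest to most members in each large library and up to 4 with most regions per list. After seeing the values, genes tied in number of regions were added, and for the AP-1 and squamous lists all genes with a region and those without. Regions with members in at least 3 libraries are given as a summary with single examples, picked after their values were seen. Alternatives were the promoter distance, start sites of protein-coding genes, a stricter q-value, the heptamer near the summit, the 9-base site, the overlap, the window at the summit, means, raised background left out and each library left out. Leaving out libraries with under 20 members, 1 value per line and peaks of 200 to 400 bp were chosen after seeing the data.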

Additional observations from a re-analysis of the deposited data

How the results depend on the processing

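Over the 3 tests, 42 of 42 alternatives kept the direction of the mean difference. The log2 difference in fold enrichment between members and other distal peaks (0.15) lost its call with a promoter distance of 1 kb (0.073, higher in 4 of 6 libraries), start sites of protein-coding genes (0.10, 4 of 6), a q-value under 0.01 (0.14, 6 of 6, through the adjustment alone), the heptamer within 100 bp of the summit (0.12), the 9-base site (0.075) and means (0.12). The excess density at the summit (0.797 per kb) lost its call with a q-value under 0.01 (0.801) and a window of 25 bp (0.722), and through the adjustment alone with start sites of protein-coding genes (0.721) and the 9-base site (0.374). Without raised local background both kept their calls, at 0.13 and 0.843 per kb. With 1 library left out the ranges were 0.11 to 0.18 and 0.510 to 0.943 per kb, and no call was possible since 5 libraries allow no exact p under 0.0625. The same holds without the libraries of under 20 members (0.17 and 1.52 per kb) and with 1 value per line (0.15 and 0.797 per kb), where the smallest exact p is 0.25. The share difference of 12.4 points passed at a promoter distance of 1 kb (14.6 points). It was 5.44 points with the 9-base site (4 of 6 libraries), 23.2 points without the libraries of under 20 members, and 8.51 points without library 6 of KYSE-30 to 15.2 points without library 8 of KYSE-150, and passed in none of these.

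The number of member regions (4423) was 2022 with the 9-base site and 2533 to 4418 with 1 library left out, with 2533 without library 2 of HET-1A and 2766 without library 6 of KYSE-30. The share of members of library 2 found in library 6 (31.1%) was 34.7% with the 9-base site, 26.9% with 50% overlap and 29.2% for peaks of 200 to 400 bp. The share of members of library 6 found in library 2 (33.3%) was 29.0% with 50% overlap and 30.9% for peaks of 200 to 400 bp. Other distal peaks stayed lower in each case, at 10.6% and 18.5% for peaks of 200 to 400 bp.

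No paired analysis was possible because the lines share no library numbers. Counting error limits the 3 libraries with under 20 members, and the lists hold called peaks only, so a region without a peak is one below the caller's threshold.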

Other observations

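One member stood apart by its libraries. The region chr2:133025587-133026009, between genes and 10084 bp from ANKRD30BL, had a peak in all 6 libraries and held the heptamer in 5 of them, all but library 6 of KYSE-30. Its fold enrichment was 9.43 and 4.22 in libraries 1 and 2 of HET-1A, 6.46 and 4.84 in libraries 4 and 6 of KYSE-30 and 10.6 and 9.67 in libraries 7 and 8 of KYSE-150. The heptamer lay 128 to 135 bp from the summit in the 5 libraries, and the local background in library 7 was 5.68 times the genome background.

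The share of distal peaks with the heptamer varied by chromosome from 19.1% on chromosome 19 to 42.7% on chromosome 22 in library 2, and from 26.2% on chromosome 22 to 56.8% on chromosome 21 in library 6. Sharing with library 7 of KYSE-150 went opposite ways by the list it was read from. There, 0.259% of members of library 2 were found (0.126 to 0.534%), against 0.855% of its other distal peaks (0.631 to 1.16%). For library 6 of KYSE-30 the shares were 0.322% (0.163 to 0.635%) and 0.941% (0.643 to 1.38%). Read from library 7, 50% of its 16 members (28.0 to 72.0%) were found in library 6, against 15.2% of its 178 other distal peaks (10.6 to 21.2%), and 37.5% (18.5 to 61.4%) against 23.0% (17.5 to 29.7%) in library 2. With 6 to 8 members behind each of these shares, no test was made.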
